A study of Mus musculus with 35 samples.

Results

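Aqp3, Aqp4, Aqp5, Scnn1a, Scnn1b, Cftr, Slc12a2 and Kcnq1 encode water channels, sodium channel subunits and parts of the chloride secretion machinery of airway epithelium. They were followed through untransplanted mouse trachea and through isografted and allografted trachea. Every probe set that the platform annotation assigned to exactly 1 of these 8 genes was taken, which gave 14 of the 22626 probe sets and 8 of the 12393 genes on the array.

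Airway epithelium sets the depth of the liquid on its surface by moving salt, and water follows through aquaporins. Sodium is taken up through the epithelial sodium channel, whose alpha, beta and gamma subunits are encoded by Scnn1a, Scnn1b and Scnn1g. Chloride is secreted by loading the cell through the sodium-potassium-chloride cotransporter Nkcc1 (Slc12a2) on the basolateral side and releasing it through apical channels such as Cftr, while potassium channels such as Kcnq1 keep the driving force. Aqp5 sits in the apical membrane of gland cells and surface cells. Aqp3 and Aqp4 sit in basolateral membranes, Aqp3 mainly in basal cells and Aqp4 in columnar cells. Aqp3 is also made by keratinocytes of the skin, and Aqp4 by fast skeletal muscle fibres.

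The 35 arrays fell into 7 groups of 5. The group Native-0 was normal trachea that had not been transplanted. Iso-4, Iso-14 and Iso-25 were grafts collected on day 4, 14 or 25 from MHC compatible recipients, and Allo-4, Allo-14 and Allo-25 were collected on the same days from MHC incompatible recipients. All were tracheal tissue from Mus musculus. The strain, sex and age of the mice, the site of the graft, and whether an array held 1 animal or a pool are not given in the sources used here. All p-values therefore measure the spread between arrays, and 5 arrays a group limit their precision.

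Values are the authors' log2 intensities, on which a difference of 1 is a doubling. A probe set was tested when it reached 5 in at least 5 arrays, and values below about 5 are called near background here. A difference was called when the adjusted p of limma was under 0.05, and where a gene had several probe sets, the one with the highest mean over all arrays stood for it. Cartilage markers averaged 5.79 to 11.4 per array over the whole series, and airway epithelial markers averaged 8.26 to 9.75 in native trachea, so native arrays carried the defining markers of the labelled tissue. Native-0 replicate 5 and Iso-25 replicate 5 stood apart from the rest, with a median correlation with their own group of 0.9498 and 0.9414 against 0.9583 to 0.9812 for the others. Both also carried skin markers, at a mean of 10.5 and 9.03. Their group mates lay at 3.76 to 4.21. Skin markers also averaged above 5 on other arrays, at 7.31 and 5.43 in Iso-4 replicates 1 and 2, 6.35 to 7.81 in Iso-14 replicates 2 to 4, and 7.36 and 7.98 in Allo-4 replicates 1 and 3.

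Of the 8 genes, 7 passed the filter, with 12 of their 14 probe sets. Both Cftr probe sets lay near background. Probe set 1427767_a_at reached 5 in 3 arrays, and 1420579_s_at did so in none of 35. Scnn1b passed with exactly 5 arrays, all of them native, so it passed only through the group where it was highest and stayed below 5 in all 30 grafts. Kcnq1 lay between 5.01 and 6.43 on all 35 arrays, just above the filter. Aqp4, read by 1434449_at, and Aqp5 were clearly above background in native trachea and isografts and lay near it in most day 25 allografts. The second Aqp4 probe set, 1425382_a_at, reached 5 in 15 of 35 arrays, with a native mean of 4.40. Of the Aqp3 probe sets, 1422007_at did so in 7 arrays, with a mean of 4.19 over all 35. Scnn1a was at 4.91 to 5.12 in Allo-25, at about the near-background value. Slc12a2 read at least 7.14 on all 35 arrays.

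**Figure D1:**
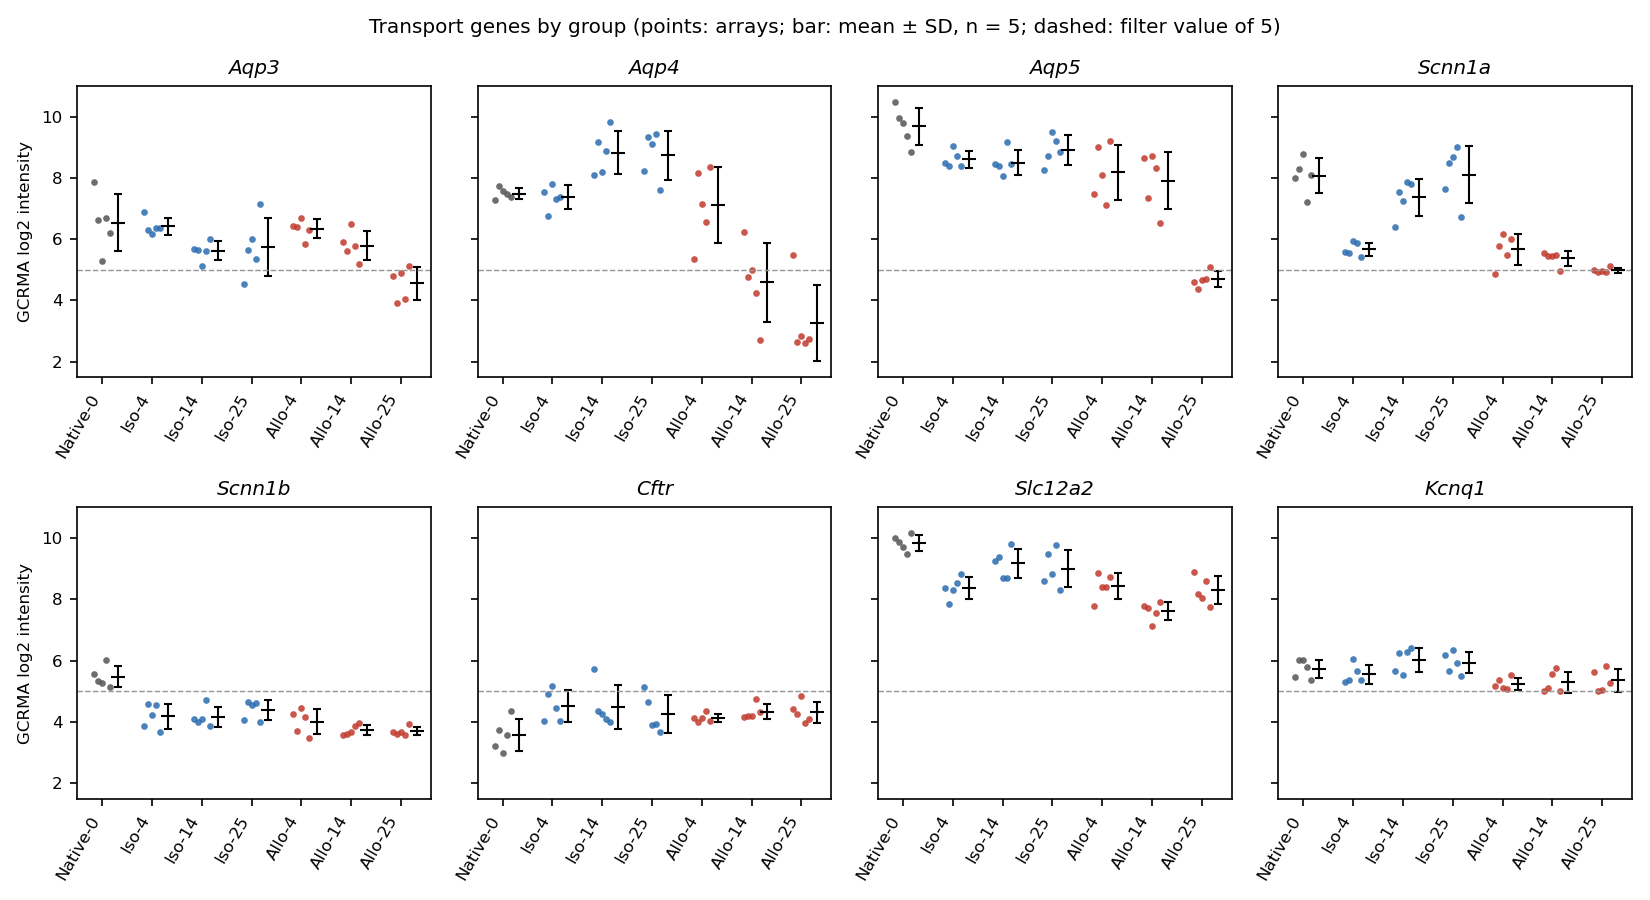
Log2 intensity (vertical axis) of the 8 transport genes on their representative probe sets, by group (horizontal axis). Points are single arrays, the black bars are the mean and SD of 5 arrays, and the dashed line marks the filter value of 5. Aqp5 is lowest in Allo-25, Aqp4 is low in Allo-14 and Allo-25, and Scnn1a is low in Iso-4 and in all 3 allograft groups.

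Promoter sequence was taken from RefSeq's table for GRCm38.p6 for 4 of the 8 genes, Aqp3, Scnn1b, Aqp5 and Cftr. Each window ran from 250 bases before to 50 bases after the gene's start. No promoter of Aqp4, Slc12a2, Scnn1a or Kcnq1 was examined, which does not show that RefSeq lacks them. The 3 genes shown had a called difference between allografts and isografts on day 25. For Scnn1b the values lay below 5 in both groups, and the Aqp3 and Scnn1b calls were lost when some single arrays were left out. The fourth, Cftr, lay near background. Capitals mark matches on either strand to a TATA box (TATAAA), a GC box (GGGCGG) or an E-box (CACGTG). No matches overlapped in the 3 windows shown.
Aqp3, chr4:41098134-41098433, minus strand: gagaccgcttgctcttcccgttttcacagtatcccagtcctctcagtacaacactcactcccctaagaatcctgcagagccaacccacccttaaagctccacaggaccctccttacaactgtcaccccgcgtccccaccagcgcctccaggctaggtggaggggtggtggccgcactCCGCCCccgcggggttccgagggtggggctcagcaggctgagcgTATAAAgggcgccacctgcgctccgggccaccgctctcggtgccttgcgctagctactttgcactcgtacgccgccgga
Scnn1b, chr7:121864788-121865087, plus strand: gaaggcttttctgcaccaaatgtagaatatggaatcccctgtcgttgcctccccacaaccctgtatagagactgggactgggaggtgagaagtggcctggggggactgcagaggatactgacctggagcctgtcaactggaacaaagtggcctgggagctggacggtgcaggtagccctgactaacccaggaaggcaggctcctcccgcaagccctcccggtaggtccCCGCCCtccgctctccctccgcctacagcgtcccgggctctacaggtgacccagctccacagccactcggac
Aqp5, chr15:99590778-99591077, plus strand: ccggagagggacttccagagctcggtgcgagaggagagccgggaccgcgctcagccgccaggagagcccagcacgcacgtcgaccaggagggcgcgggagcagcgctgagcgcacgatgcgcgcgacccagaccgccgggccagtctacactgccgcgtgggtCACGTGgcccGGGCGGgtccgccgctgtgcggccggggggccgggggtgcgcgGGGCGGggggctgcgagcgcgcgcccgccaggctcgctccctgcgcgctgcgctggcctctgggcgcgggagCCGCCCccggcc

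The 3 windows do not share 1 layout. The Aqp3 window held a TATA box beginning at -29 and a GC box at -73, counted from the start as 0. The Scnn1b window held only a GC box, at -22. In the Aqp5 window there were 3 GC boxes and an E-box at -87, and 79.7% of its bases were G or C. Among 32851 RefSeq promoter windows of 300 bases, 13.6% held the TATA letters, 35.7% the GC box and 7.15% the E-box, so the GC box that all 3 share is a common match.

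Allografts and isografts were set against each other on each day, which addresses how an incompatible recipient changes the transport genes of the graft. On day 4 none of the 7 tested genes was called, and none reached an unadjusted p of 0.05 in limma, while 0.553% of the 8313 genes tested were called in either direction. On day 14, 4 of 7 were lower in allografts (Aqp4, Scnn1a, Slc12a2 and Kcnq1) and none higher, beside 10.5% of all genes called lower. On day 25, 5 of 7 were lower (Aqp4, Aqp5, Scnn1a, Aqp3 and Scnn1b) and none higher, beside 10.3% of all genes. Without the 2 arrays that stood apart, 6 of 7 were lower on day 25, with Aqp3 lost (-0.83, adjusted p = 0.118) and Slc12a2 (-0.88, adjusted p = 0.0221) and Kcnq1 (-0.68, adjusted p = 0.028) added. The median difference of the 7 was -0.17, -0.74 and -1.18 on the 3 days, against 0.03, 0.03 and -0.0022 over all genes.

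**Figure D2:**
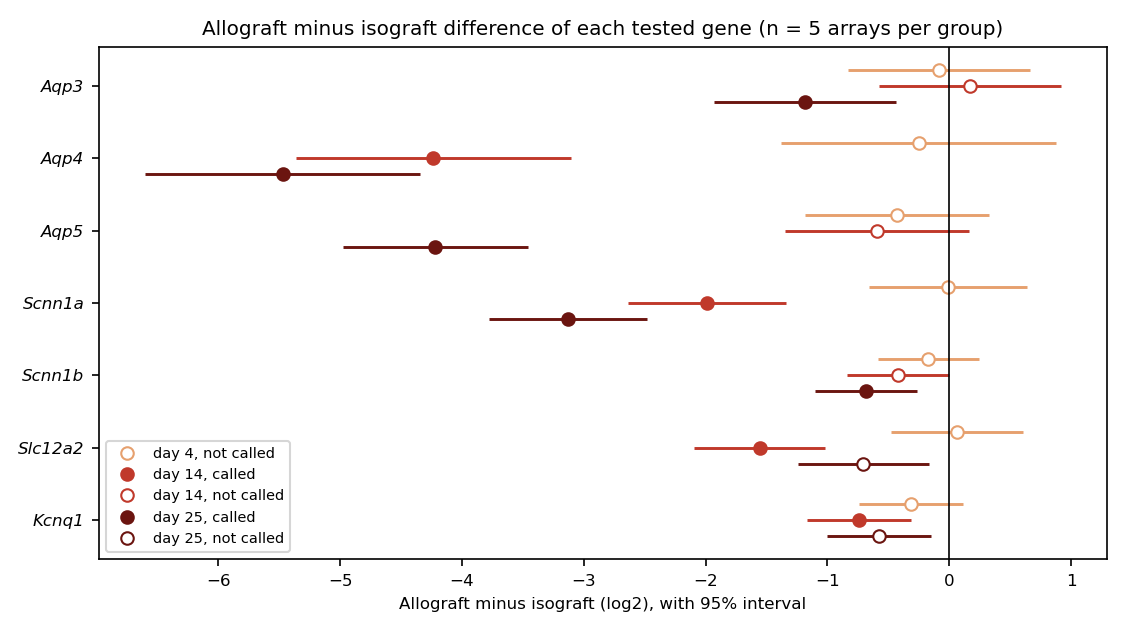
Allograft minus isograft difference in log2 intensity (horizontal axis) of the 7 tested genes (vertical axis), one row per day, with 95% intervals from limma. Filled points were called at an adjusted p under 0.05. All day 4 intervals include 0, Aqp4 and Scnn1a are lower on days 14 and 25, and Aqp5 is called on day 25 but not on days 4 and 14.

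Epithelial markers were also lower in allografts on days 14 and 25, when not all of the transport genes were called. Aqp3, Aqp5 and Scnn1b were not called on day 14, nor were Slc12a2 and Kcnq1 on day 25. The mean of 10 airway epithelial markers (Epcam, Cdh1, keratins, claudins and the transcription factors Elf3, Ehf and Foxa1) ranged over 8.01 to 9.15 in Iso-14 and 4.33 to 6.63 in Allo-14. It ranged over 8.0 to 8.92 in Iso-25 and 3.10 to 3.57 in Allo-25. The markers were called lower in allografts for 9 of 10 genes on day 14 and for 10 of 10 on day 25, when every one of them averaged below 5 (Cldn3, the highest, at 4.59). Secretory and gland markers were lower for 8 of 9 on both days (median differences -5.85 and -9.20). Ciliated markers were lower for 4 of 4 on both days (-3.15 and -3.17). Leukocyte markers moved the other way, with 7 of 8 higher in Allo-14 and 5 of 8 higher in Allo-25. Other tissues differed too. Of 5 basal cell markers, 3 were lower in allografts on day 14 and 5 on day 25 (median differences -1.04 and -3.76). Both thyroid markers were lower on both days (-4.98 and -5.96). Cartilage markers were lower for 5 of 6 on day 14 (-2.77) and for 0 of 6 on day 25, and skeletal muscle markers for 6 of 10 (-4.02) and then 0 of 10. Fewer epithelial cells and less RNA per cell cannot be told apart in tissue RNA, and the part of these markers in the differences of the transport genes was not tested.

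Aqp5, the apical water channel, was called lower in allografts than in isografts on day 25 only. Its probe set 1418818_at read 8.26, 8.70, 9.51, 9.22 and 8.86 in Iso-25 and 4.61, 4.38, 4.66, 4.72 and 5.10 in Allo-25. The groups did not overlap, and 4 of the 5 allograft values were near background. The difference was -4.22 (SE 0.37, adjusted p = 1.34e-10), an 18.6-fold lower level whose size depends on the authors' background model. On day 14 the same probe set read 8.47, 8.38, 8.05, 9.17 and 8.45 in Iso-14 and 8.65, 7.34, 8.70, 8.32 and 6.54 in Allo-14. There 3 of the 5 allografts lay within the isograft range, and the difference of -0.59 (95% interval -1.35 to 0.16) was not called (adjusted p = 0.312). Allo-25 minus Allo-14 was -3.22 (SE 0.37, adjusted p = 5.09e-07), and the allograft minus isograft difference changed between days 14 and 25 by -3.63 (SE 0.53, adjusted p = 7.99e-05).

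Aqp4, the water channel of columnar cells, was already lower on day 14. Probe set 1434449_at read 8.10, 9.16, 8.19, 8.87 and 9.81 in Iso-14 against 6.24, 4.75, 5.00, 4.25 and 2.71 in Allo-14. All 5 allografts lay below all 5 isografts, and 3 of them near background. The difference was -4.24 (SE 0.55, adjusted p = 6.62e-07), an 18.8-fold lower level. In Allo-4 the 5 values of 5.36, 8.16, 7.15, 6.56 and 8.35 already spread on both sides of the Iso-4 values of 6.75 to 7.81, and the difference of -0.25 (95% interval -1.38 to 0.88) was not called. Its change between days 4 and 14 was -3.99 (SE 0.78, adjusted p = 0.00116), and Allo-14 minus Allo-4 was -2.52 (SE 0.55, adjusted p = 0.00291).

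By day 25 the Aqp4 values were 8.23, 9.35, 9.12, 9.42 and 7.60 in isografts and 5.49, 2.66, 2.84, 2.60 and 2.75 in allografts. Here too the groups did not overlap, and 4 of the 5 allografts were near background, which leaves the size of the 44.4-fold difference (-5.47, SE 0.55, adjusted p = 3.14e-09) to the background model. The allograft at 5.49, replicate 1, was also the array in which 10 skeletal muscle markers averaged 12.5, against 3.49 to 7.82 in the other 4. The part of muscle RNA in that value was not tested. Without that array the difference was -6.03.

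In isografts Aqp4 was not called lower than in native trachea on any day. The arrays of Iso-14 and Iso-25 ranged over 7.60 to 9.81, beside 7.29 to 7.74 in native trachea. All 5 Iso-14 arrays lay above all 5 native arrays. The difference of 1.34 (SE 0.55, 95% interval 0.21 to 2.47) was not called (adjusted p = 0.0674). It was called with 3 other scalings of the arrays (1.5 to 1.53, adjusted p 0.0346 to 0.042), with the 2 groups fitted alone (adjusted p = 0.0091) and with the mean of both Aqp4 probe sets (1.57, adjusted p = 0.0283).

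Aqp3, the basolateral water channel of basal cells, differed least of the 3 aquaporins on day 25. Probe set 1450460_at read 4.55, 5.66, 6.01, 5.37 and 7.15 in Iso-25 and 4.81, 3.92, 4.91, 4.05 and 5.13 in Allo-25, so the ranges overlapped. The difference was -1.18 (SE 0.37, adjusted p = 0.024). This call was not stable. The isograft at 7.15 was replicate 5, which carried skin markers, and without it the difference was -0.83 (adjusted p = 0.116). It was also lost without Iso-25 replicate 3, Allo-25 replicate 2 or Allo-25 replicate 4 (-1.12 to -1.02, adjusted p 0.0596 to 0.0774) and in a fit of the 2 groups alone (adjusted p = 0.117). On days 4 and 14 Aqp3 differed by -0.08 (95% interval -0.83 to 0.67) and 0.17 (95% interval -0.58 to 0.92), and neither was called.

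Scnn1a, the pore-forming alpha subunit of the sodium channel, separated grafts by recipient and by day. Probe set 1425088_at read 6.39, 7.55, 7.25, 7.86 and 7.80 in Iso-14 and 5.55, 5.44, 5.46, 5.50 and 4.95 in Allo-14. The groups did not overlap (difference -1.99, SE 0.32, adjusted p = 1.86e-05). In Iso-25 the values were 7.64, 8.49, 8.68, 9.02 and 6.72, and in Allo-25 they were 5.00, 4.91, 4.96, 4.92 and 5.12, again without overlap (difference -3.13, SE 0.32, 8.75-fold, adjusted p = 3.57e-09). The Allo-25 values lay at about the near-background value, so the size of that difference depends on the authors' background model. On day 4 both kinds of graft had low means, 5.67 in Iso-4 and 5.66 in Allo-4, with a difference of -0.01 (95% interval -0.66 to 0.64). The allograft minus isograft difference changed between days 4 and 14 by -1.98 (SE 0.45, adjusted p = 0.00472).

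In isografts Scnn1a was low on day 4 and higher again on day 14. Native trachea read 7.99, 8.30, 8.77, 7.22 and 8.09 for Scnn1a, and Iso-4 read 5.59, 5.56, 5.93, 5.86 and 5.41, a difference of -2.41 (SE 0.32, adjusted p = 4.14e-07) with no overlap. Iso-14 was higher than Iso-4 by 1.70 (SE 0.32, adjusted p = 0.000211), also without overlap. Iso-25 differed from native trachea by 0.04 (95% interval -0.61 to 0.68, adjusted p = 0.957). In allografts Scnn1a was lower than native on all 3 days, with differences of -2.41, -2.70 and -3.09 (SE 0.32 each, adjusted p at most 3.39e-07), and the changes from Allo-4 to Allo-14 and from Allo-14 to Allo-25 were not called. The allograft values were already close to background, which limits any further fall that could be seen.

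Scnn1b, the beta subunit, was highest in native trachea, at 5.58, 5.32, 5.28, 6.02 and 5.15. Every one of the 30 grafts lay below every native array, between 3.47 and 4.71. Because the gene passed the filter only through the native group, its calls against that group were bound to the filter and are given as a description, with differences of -1.10 in Iso-25 to -1.78 in Allo-25. Among the grafts all values were near background. Allo-25, at 3.66, 3.62, 3.68, 3.57 and 3.92, lay below Iso-25, at 4.06, 4.66, 4.55, 4.62 and 3.98, without overlap. The difference was -0.68 (SE 0.20, adjusted p = 0.0188), and it was no longer called without Iso-25 replicate 2, 3 or 4 (adjusted p 0.051 to 0.0611). Scnn1g, the gamma subunit, had group means of 2.06 to 2.16 and was not tested.

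Slc12a2, the basolateral chloride loader, stayed well above background in every group on its brightest probe set. The other 2 averaged 5.72 and 5.85 over all arrays and reached down to 4.43 and 4.63 in Allo-25. Probe set 1417622_at read 9.26, 9.40, 8.70, 8.70 and 9.82 in Iso-14 and 7.77, 7.72, 7.14, 7.55 and 7.92 in Allo-14. The groups did not overlap, and the difference was -1.56 (SE 0.27, 2.94-fold, adjusted p = 4.54e-05). By day 25 the isografts, at 8.61, 9.48, 8.84, 9.77 and 8.30, and the allografts, at 8.91, 8.16, 8.06, 8.60 and 7.75, overlapped (difference -0.70, 95% interval -1.24 to -0.16, adjusted p = 0.0727). That difference was called without Iso-25 replicate 1 or 5 or without Allo-25 replicate 1 (-0.88 to -0.80, adjusted p 0.0221 to 0.0479). Allo-25 replicate 1, the highest allograft, was the array with the high muscle markers.

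Against native trachea (10.00, 9.87, 9.72, 9.48 and 10.18), Slc12a2 was lower in Iso-4, with a difference of -1.48 (SE 0.27, adjusted p = 4.37e-05), without overlap. It was higher in Iso-14 than in Iso-4 by 0.81 (adjusted p = 0.0271), a call lost without Iso-4 replicate 2, Iso-14 replicate 2 or Iso-14 replicate 5 (0.64 to 0.75, adjusted p 0.0629 to 0.0953). The other 2 probe sets gave 0.17 and 0.07 (adjusted p = 0.746 and 0.889), and the mean of the 3 gave 0.35 (adjusted p = 0.256). The allograft minus isograft difference of 1417622_at changed by -1.62 (SE 0.37, adjusted p = 0.00552) between days 4 and 14. That change too was not called for the other 2 probe sets (-0.33 and -0.35, adjusted p = 0.756 and 0.716) or for the mean of the 3 (-0.77, adjusted p = 0.132). No change was called between days 14 and 25 (0.85, SE 0.37, adjusted p = 0.468).

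Kcnq1, a potassium channel that supports chloride exit, spanned a narrow range. Its probe set 1449464_at read 5.66, 6.25, 5.54, 6.27 and 6.43 in Iso-14 and 5.01, 5.09, 5.56, 5.75 and 5.03 in Allo-14. The groups overlapped at 2 allograft values, and the difference was -0.74 (SE 0.21, 1.67-fold, adjusted p = 0.0108). On day 25 the difference of -0.58 (95% interval -1.0 to -0.15) was not called (adjusted p = 0.0622). It was called without Iso-25 replicate 5 or Allo-25 replicate 4 (-0.68 and -0.70, adjusted p = 0.0306 and 0.0261). Kcnq1 was not called against native trachea in any graft group. Without the 2 arrays that stood apart it was called lower in Allo-4 (-0.58, adjusted p = 0.0287) and Allo-14 (-0.54, adjusted p = 0.0398). Array weights gave these 2 calls too (adjusted p = 0.00895 and 0.02), as did leaving out some single arrays.

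Cftr, the apical chloride channel mutated in cystic fibrosis, could not be read with confidence on these arrays. The more intense probe set, 1427767_a_at, read 3.21, 3.74, 2.99, 3.59 and 4.36 in native trachea and 2.99 to 5.73 over all 35 arrays. All 7 groups overlapped with their neighbours in the order of means, from 4.52 in Iso-4 to 3.57 in native trachea. In a fit without the filter it was higher than native in Iso-4 (0.94, SE 0.29, adjusted p = 0.0131), Iso-14 (0.91, adjusted p = 0.0251) and Allo-14 (0.75, adjusted p = 0.045), differences that lie almost wholly below the filter value. No allograft minus isograft difference was called in that fit (-0.39 to 0.06, SE 0.29).

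Other probe sets of the same gene did not always repeat these calls. For Aqp4, 1425382_a_at was also lower in allografts on day 14 (-2.40, SE 0.70, adjusted p = 0.0132) and day 25 (-2.51, SE 0.70, adjusted p = 0.0107). For Aqp3, 1422008_a_at and 1422007_at were not called on day 25 (-0.94 and -0.62, adjusted p = 0.202 and 0.597). Neither 1417623_at nor 1448780_at was called for Slc12a2 on day 14 (-0.39 and -0.48, SE 0.29 and 0.28, adjusted p = 0.42 and 0.257). The day 14 difference of Slc12a2 thus rests on its brightest probe set. Over the 35 arrays 1417622_at correlated with the other 2 at r = 0.398 and r = 0.720. Against native trachea 1448780_at was lower in all 6 graft groups (-1.82 to -1.28). By contrast, 1417623_at was not called in the 3 isograft groups or in Allo-4 (-0.60 to -0.37, adjusted p 0.098 to 0.353), and it was lower in Allo-14 (-0.76, adjusted p = 0.0346) and Allo-25 (-1.24, adjusted p = 0.00124). Aqp5, Scnn1a, Scnn1b and Kcnq1 each had 1 probe set, so no such check could be made for them.

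**Figure D3:**
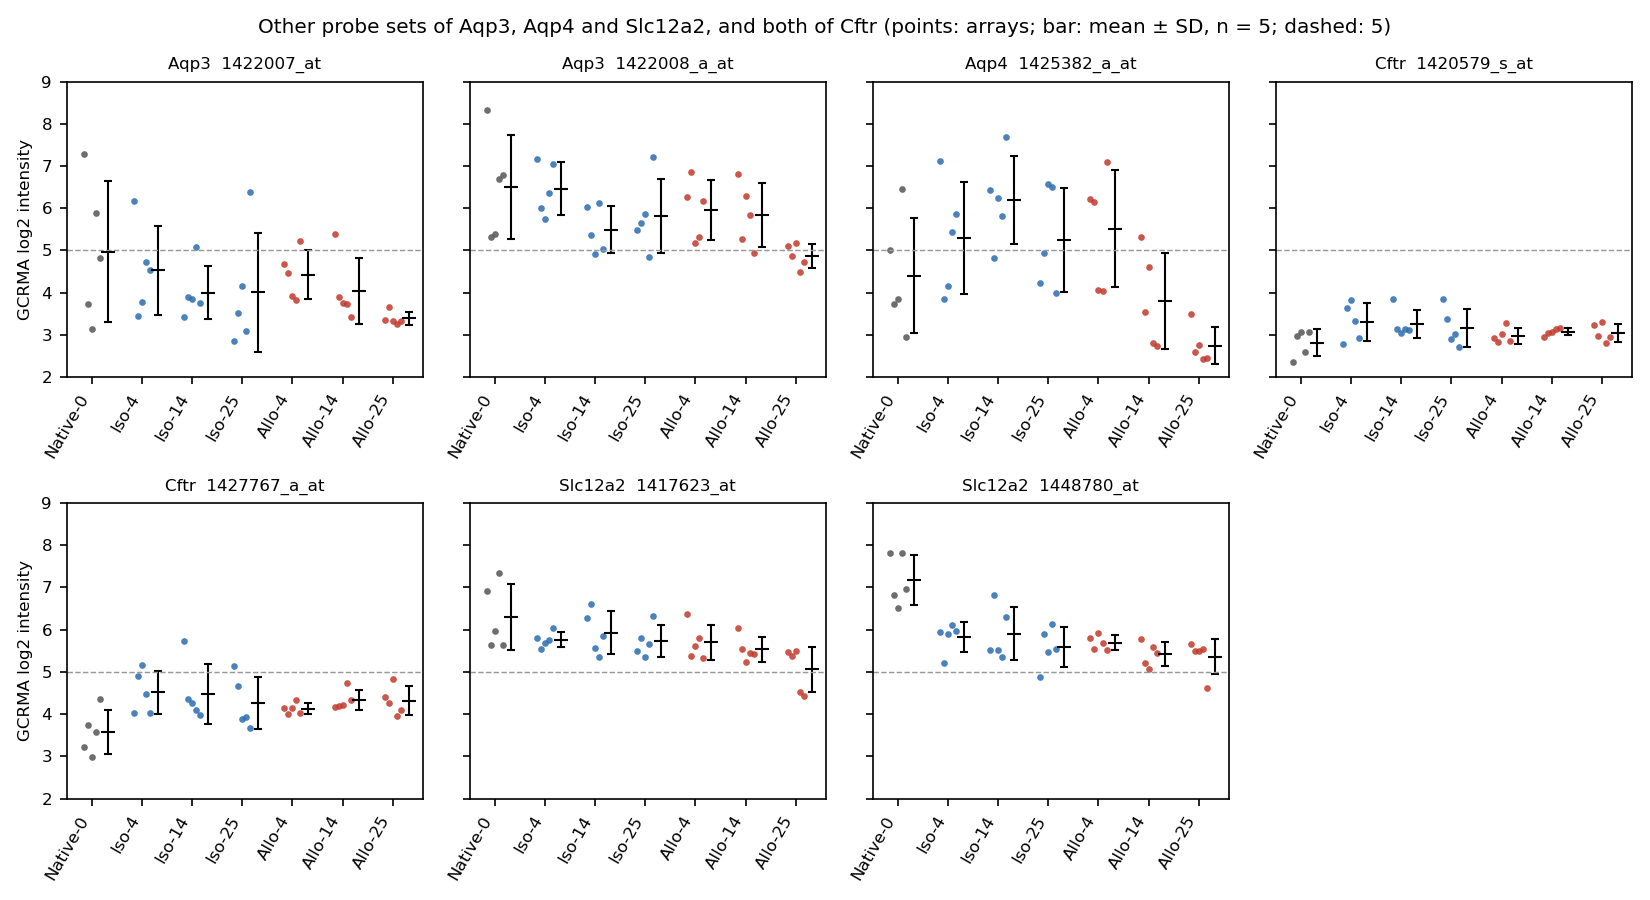
Log2 intensity (vertical axis) by group (horizontal axis) of the remaining probe sets of Aqp3, Aqp4 and Slc12a2 and of both Cftr probe sets. Points are arrays, black bars the mean and SD of 5 arrays, and the dashed line the filter value of 5. Most values lie at or below 6, the second Aqp4 probe set is lowest in Allo-25, and both Cftr panels lie almost wholly below the line.

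Each graft group was also compared with the same 5 native arrays, which asks how far a graft stands from normal trachea. These 6 comparisons are therefore not independent. In Iso-4, 4 of 7 genes were lower than native (Scnn1a, Slc12a2, Scnn1b and Aqp5), beside 26.2% of all genes called lower. In Iso-14 it was 2 of 7 (Scnn1b and Aqp5), beside 16.3%, and in Iso-25 2 of 7 (Scnn1b and Slc12a2), beside 7.36%. In Allo-4 it was 4 of 7 (Scnn1a, Scnn1b, Aqp5 and Slc12a2), beside 25.1%. In Allo-14 it was 5 of 7 (Aqp4, Scnn1a, Slc12a2, Aqp5 and Scnn1b), beside 26.5%. In Allo-25 it was 6 of 7, all but Kcnq1, beside 19.7%. Scnn1b, which passed the filter only through the native group, is 1 gene of each of these counts, and its call was bound to the filter. Without it Aqp5 alone is left in Iso-14 and Slc12a2 alone in Iso-25. The counts are therefore not read against the shares of all genes. Scnn1b is also in the counts and medians that follow. None of the 7 was called higher in any of the 6 comparisons. Without the 2 arrays that stood apart the counts were 4, 3 and 2 in isografts and 5, 6 and 6 in allografts. The 2 genes of Iso-25 then were not the same, with Slc12a2 lost (-0.59, adjusted p = 0.135) and Aqp3 added (-1.22, adjusted p = 0.0216). The median differences of the 7 genes were -1.08, -0.71 and -0.78 in the isografts and -1.41, -1.78 and -1.97 in the allografts, by day, and those of all genes lay between -0.10 and 0.01.

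Aqp5 in native trachea read 10.47, 9.95, 9.80, 9.36 and 8.86. The difference was -1.08 in Iso-4 (SE 0.37, adjusted p = 0.0188) and -1.18 in Iso-14 (adjusted p = 0.0174), with overlap in both. Both calls were lost without Native-0 replicate 1, the highest array (-0.88 and -0.99, adjusted p = 0.0668 and 0.0664). Allo-4 and Allo-14 were called lower too, at means of 8.18 and 7.91 beside 9.69 in native trachea, with overlap in Allo-4 only. Leaving out single arrays gave differences of -1.76 to -1.24 and -1.98 to -1.43 and kept both calls. In Allo-25 the difference was -4.99 (SE 0.37, adjusted p = 1.37e-12). Aqp3, at 7.85, 6.62, 5.28, 6.70 and 6.21 in native trachea, was lower in Allo-25 (-1.97, SE 0.37, adjusted p = 6.98e-05), without overlap, and was not called in the other 5 graft groups. The Slc12a2 call in Iso-25 (-0.85, adjusted p = 0.0276) was lost when any of 5 arrays was left out (Native-0 replicates 1 and 5, Iso-25 replicates 1, 3 and 5, with -0.81 to -0.67 and adjusted p 0.0522 to 0.0831).

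Native trachea also differed from some graft groups in markers of neighbouring tissue. The mean of 2 thyroid markers was 10.7 to 11.6 in native arrays and 5.12 to 10.0 in isografts, and that of 10 skeletal muscle markers was 7.22 to 12.0 in native arrays and 3.85 to 9.93 in isografts. Skeletal muscle markers were called lower than native for 7 of 10 in Iso-4 and for 0 of 10 in Iso-14 and Iso-25. Thyroid markers were lower for 2 of 2 in Iso-4 and Iso-14 and for 1 of 2 in Iso-25. Airway epithelial markers were lower than native for 7 of 10 genes in Iso-4, 1 of 10 in Iso-14 and 0 of 10 in Iso-25. In Allo-4, Allo-14 and Allo-25 they were lower for 7, 10 and 10 of 10, skeletal muscle markers for 8, 9 and 4 of 10 and thyroid markers for 2 of 2 on each day. Leukocyte markers were higher than native for 5, 7 and 7 of 8 in those groups and for 5 of 8 in each isograft group. Secretory and gland markers were lower for 9, 3 and 2 of 9 in isografts and 9, 9 and 8 in allografts, by day. Ciliated markers were lower for 4 of 4 in Iso-4 and in each allograft group, and for 0 of 4 in Iso-14 and Iso-25. The part of any of these markers in the native comparisons of the transport genes was not tested.

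Among isografts, Scnn1a and Slc12a2 were higher on day 14 than on day 4, 2 of 7 genes beside 11.4% of all genes called higher, and none was lower. Over the same interval 9 of 9 secretory and 4 of 4 ciliated markers were higher. Between Iso-14 and Iso-25 limma called none of the 7 and 0% of all genes, and 1 of the 7 (Scnn1a, 0.74, SE 0.32) had an unadjusted p under 0.05. Among allografts, 1 of 7 (Aqp4) was lower on day 14 than on day 4, beside 5.27% of all genes, and 1 of 7 (Aqp5) was lower on day 25 than on day 14, beside 1.89%. The change of the allograft minus isograft difference was called in 3 of 7 between days 4 and 14, all downward, beside 4.96% of all genes, and in 1 of 7 between days 14 and 25, downward, beside 0.77%.

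**Figure D4:**
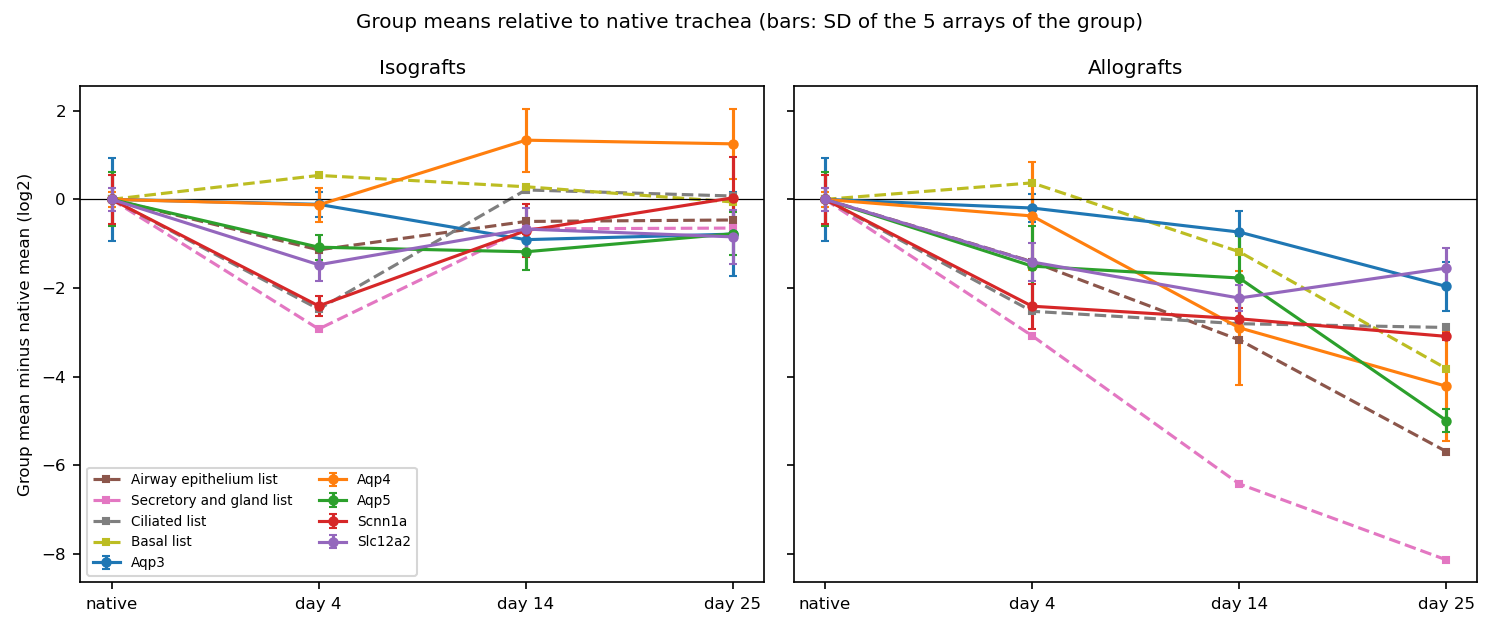
Group mean minus native mean in log2 intensity (vertical axis) by day (horizontal axis) for 5 transport genes (solid lines, bars are the SD of 5 arrays) and 4 epithelial marker lists (dashed lines), in isografts (left) and allografts (right). In isografts Scnn1a and the ciliated list are near -2.4 on day 4 and near 0 on day 25. In allografts the airway epithelium list goes from a mean level of 9.05 in native trachea to 7.65 on day 4 and 5.88 on day 14. On day 14 Aqp5 is also called lower than native trachea (means 7.91 and 9.69), and Aqp3 is not called.

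Other ion and water transport genes were read from a list of 75, of which 59 were on the array and 37 passed the filter. The 22 below it included Scnn1g, the calcium-activated chloride channel Ano1 (group means 3.13 to 4.65), the anion exchanger Slc26a4, and the potassium channel subunits Kcne1 and Kcne2. Allografts and isografts gave no call in any of the 37 on day 4. On day 14, 17 of 37 were lower in allografts and 2 higher, beside 10.5% of all genes called lower and 10.8% called higher. On day 25 again 17 were lower and 2 higher, beside 10.3% and 6.83%. On both days the 2 higher genes were Fxyd5, a regulator of the sodium pump (1.47 and 1.07), and the calcium-activated potassium channel Kcnn4 (1.44 and 1.22), named after their values were seen.

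Atp1b1, the beta subunit of the sodium pump that powers all these fluxes, had the largest day 14 difference of the list, with means of 10.9 in Iso-14 and 6.20 in Allo-14 (-4.69, SE 0.44, adjusted p = 1.26e-09). Kcne3, a partner subunit of Kcnq1, differed by -3.15 on day 14 and -3.68 on day 25 (SE 0.27 each), with a mean of 3.98 ± 0.08 (SD, n = 5) in Allo-25, near background. The leak potassium channel Kcnk1 differed by -2.76 and -4.19. Spint2, an inhibitor of the serine proteases that activate the sodium channel, differed by -2.29 on day 14, and its relative Spint1 by -4.35 on day 25. The ubiquitin ligase Nedd4l, which removes the sodium channel from the membrane, differed by -1.22 and -1.57 (SE 0.32 each). Sgk1, the kinase that restrains Nedd4l, had group means of 9.01 to 9.45 and was not called in any allograft minus isograft comparison.

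**Figure D5:**
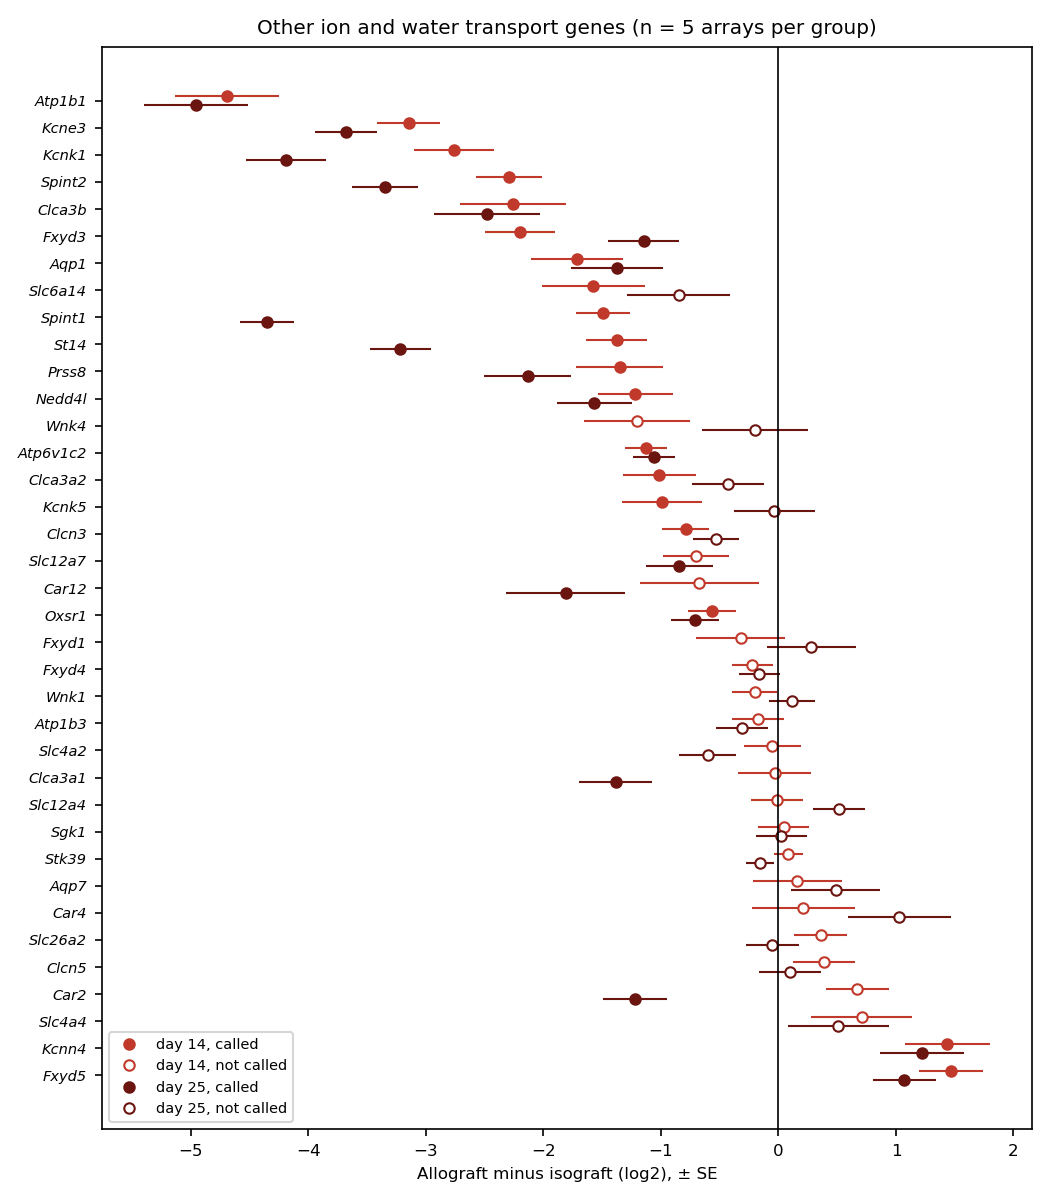
Allograft minus isograft difference in log2 intensity (horizontal axis, bars are the SE from limma) of the 37 tested genes of the wider ion and water transport list (vertical axis), on days 14 and 25. Filled points were called at an adjusted p under 0.05. Most called genes lie left of 0, and Fxyd5 and Kcnn4 lie right of it on both days.

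Against native trachea, 18 of the 37 listed genes were lower and 4 higher in Iso-4, beside 26.2% of all genes called lower and 20.2% called higher. In Iso-14 10 were lower and 5 higher, beside 16.3% and 12.1%, and in Iso-25 6 were lower and 1 higher, beside 7.36% and 9.89%. In Allo-4 19 were lower and 3 higher, beside 25.1% and 22% of all genes. In Allo-14 17 were lower and 3 higher, beside 26.5% and 21.5%, and in Allo-25 18 were lower and 2 higher, beside 19.7% and 18.4%. Kcnk1 was lower in all 6 graft groups, with differences of -3.10, -2.70 and -1.77 in isografts and -3.18, -5.46 and -5.96 in allografts. Prss8, a protease that activates the sodium channel, was lower in the 3 isograft groups (-2.87, -1.86 and -1.42), with an Iso-4 mean of 3.90, near background. Fxyd1, a pump regulator of muscle and other tissues, was lower in Iso-4 (-2.67). Slc6a14, an amino acid transporter driven by sodium and chloride, was higher in Iso-14 by 1.68, where its 5 arrays had an SD of 1.48.

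The genes whose pattern was most like each member were found by Pearson correlation over the 35 arrays among 8312 other genes, as a description. The points share the 7 groups, so a common difference between groups raises every such value. Aqp5 was closest to the claudin Cldn7 (r = 0.96), the keratin Krt19 (0.94) and Wfdc2 (0.94). Aqp4 was closest to Sftpd, which encodes a surfactant protein (0.96), Serpinb11 (0.95) and Tspan8 (0.95). Scnn1a was closest to Map7 (0.96), the ciliary gene Rsph9 (0.95) and Car8 (0.95). Aqp3 was closest to Krt7 and Cldn4 (0.82 each) and the basement membrane gene Lamb3 (0.81). For Slc12a2 they were Id4 (0.89), Patj (0.88) and Tlcd4 (0.87), for Scnn1b Rgs11 (0.87), Gjb1 (0.86) and Prom2 (0.86), and for Kcnq1 Cyb561 (0.79), Adamdec1 (0.78) and Tmem98 (0.77).

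Within each gene the order of the group means was as follows. Aqp5 ran from native trachea (9.69 ± 0.61, SD, n = 5) through Iso-25, Iso-4, Iso-14, Allo-4 and Allo-14 (7.91 ± 0.94) to Allo-25 (4.69 ± 0.26), and only the last step separated neighbours without overlap. Aqp4 ran from Iso-14 (8.83 ± 0.71), Iso-25, native, Iso-4 and Allo-4 (7.12 ± 1.22) to Allo-14 (4.59 ± 1.28) and Allo-25 (3.27 ± 1.25), with overlap at every step. Scnn1a fell into an upper set of Iso-25 (8.11 ± 0.93), native and Iso-14 (7.37 ± 0.60) and a lower set of Iso-4 (5.67 ± 0.22) and the 3 allograft groups, without overlap between the sets. Scnn1b separated native trachea (5.47 ± 0.34) from the rest, which overlapped from Iso-25 (4.37 ± 0.33) down to Allo-25 (3.69 ± 0.13). Slc12a2 ran from native (9.85 ± 0.27) to Allo-14 (7.62 ± 0.30), Aqp3 from native (6.53 ± 0.93) to Allo-25 (4.56 ± 0.54) and Kcnq1 from Iso-14 (6.03 ± 0.40) to Allo-4 (5.25 ± 0.19), each with overlap at every step.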

How the data were processed

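Tracheal RNA of 35 samples was hybridised to single-colour Affymetrix arrays. Per the submitters' processing notes, the authors made the deposited log2 intensities with GCRMA 1.1.3, which subtracts a modelled background, normalizes across arrays and summarises the probes. No detection calls were used. The 64 control probe sets were left out, and the filter (log2 value of at least 5 in at least 5 of 35 arrays) kept 13678 of 22626 probe sets and 8313 of 12393 genes. One mean per group was estimated over the 35 arrays in limma 3.58.1 (R 4.3.3) by lmFit and eBayes with 28 residual degrees of freedom. The p-values were adjusted by Benjamini-Hochberg over all probe sets kept, within each of 15 contrasts. The script was tested on simulated data.

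All 8 members are named. From the wider list, the 4 called genes with the largest difference in a comparison and some genes fixed by name are given, and per member the 3 most correlated genes. Members and lists were chosen with earlier results of these data known. Alternatives covered the filter, scaling, variance model, array weights, arrays left out, probe set rule, threshold and replicate block. Promoters came from RefSeq.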

Additional observations from a re-analysis of the deposited data

Results flagged for a closer look

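Within groups of 5 arrays, the highest or lowest array stood apart from the others in 12 of 98 groups of member probe sets, where chance gives about 1 in 20. For Aqp4, Allo-25 replicate 1 read 5.494. For Aqp3 they were Iso-4 replicate 1 at 6.901 on probe set 1450460_at, and Iso-14 replicate 4 at 5.086, Allo-14 replicate 1 at 5.392 and Allo-25 replicate 2 at 3.669 on 1422007_at. Scnn1a had Allo-14 replicate 5 at 4.952, and Scnn1b had Iso-14 replicate 4 at 4.713. For Cftr they were Iso-14 replicate 1 on both probe sets, at 3.857 and 5.732, and Allo-14 replicate 4 at 4.746. On the Slc12a2 probe set 1448780_at they were Iso-4 replicate 2 at 5.209 and Allo-25 replicate 5 at 4.627.

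The allograft minus isograft difference was itself different between days in 4 genes by limma's interaction terms. Between days 4 and 14 it changed by -3.99 for Aqp4, -1.98 for Scnn1a and -1.62 for Slc12a2, and between days 14 and 25 by -3.63 for Aqp5. The Slc12a2 change was not called with the mean of its 3 probe sets (-0.77, adjusted p = 0.132).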

How the results depend on the processing

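Limits: no detection calls were used, values near background carry the authors' model, and the arrays are not known to be separate animals. The number of members called was within 1.5 times its reported value in 311 of 344 recomputations, and no called difference changed sign. For Allo-25 minus Iso-25 it was 5, and 3 with the filter at 7 or an adjusted p under 0.01. For Iso-14 minus Native-0 it was 2, 1 with the filter at 7 or an adjusted p under 0.01, and 4 with array weights or the mean of the gene's probe sets. With the probe set mean, 1 of those 4 was Aqp4, higher than native trachea (1.57, adjusted p = 0.0283). For Iso-25 minus Native-0 the count was 2, and 1 with the filter at 7, with reference gene centring or with an adjusted p under 0.01. For Iso-14 minus Iso-4 it was 2, 4 with reference gene centring or only the groups compared, and 1 with the probe set mean or an adjusted p under 0.01. With only the groups compared, 1 of those 4 was Aqp3, lower on day 14 (-0.80, adjusted p = 0.0139). For Allo-14 minus Allo-4 the count was 1, and 2 with the filter at 7, array weights or only the groups compared. For Allo-25 minus Allo-14 it was 1, and 2 with array weights or median centring, and the 14 to 25 interaction went from 1 to 2 with array weights. With the filter at 7, Aqp3, Scnn1b and Kcnq1 were not tested. The lower counts with that filter are therefore genes removed, not calls lost. The causes of the other changes were not tested. Leaving out each array in turn gave 3 to 6 for Allo-25 minus Iso-25, 1 to 4 for Iso-14 minus Native-0, 1 to 3 for Iso-25 minus Native-0 and Iso-14 minus Iso-4, 3 to 4 for Iso-4 minus Native-0, 4 to 5 for Allo-4 minus Native-0, 5 to 6 for Allo-14 minus Native-0, and 1 to 2 for Allo-14 minus Allo-4 and Allo-25 minus Allo-14. Deviations from the group means had a median correlation of 0.039 between same-numbered arrays and 0.007 between arrays of different numbers. Among same-numbered pairs it ranged from -0.422 to 0.467 and was over 0.1 in 40 of 105. With the replicate block the counts stayed at 4 (Allo-14 minus Iso-14), 5 (Allo-25 minus Iso-25) and 0 (Allo-4 minus Iso-4), and the block changed no other member count. Centring on reference genes moved the median of all probe sets from -0.03 to 0.28 in Iso-14 minus Iso-4 and from 0.0028 to 0.2237 in Iso-25 minus Native-0. Over all probe sets the calls in Iso-25 minus Native-0 went from 2203 to 3549 with array weights and to 901 with an adjusted p under 0.01.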
